A study of Drosophila melanogaster with 30 samples.

Results

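The 5 serotonin receptor genes of *Drosophila*, 5-HT1A, 5-HT1B, 5-HT2A, 5-HT2B and 5-HT7, were followed through all the Targeted DamID (TaDa) profiles of CrebB in the mushroom bodies (MBs). They were chosen by name, as members of a receptor family, and not by any measured value. All 5 were measured, among 17480 genes tested. In TaDa, a DNA adenine methylase (Dam), alone or fused to a factor, marks GATC sites near where it binds. Here tubGal80ts; mb247-Gal4 flies drove either UAS-Dam-CrebB or UAS-Dam in Kenyon cells of the α, β and γ type, whose axons form the MB lobes, and methylated DNA was sequenced from pooled heads of adult flies. The value of a gene compares Dam::CrebB with Dam-only methylation as a log2 ratio, averaged with weights by length over every GATC fragment touching the gene body. A positive value means more methylation by Dam::CrebB than by the free enzyme, and it is not a level of expression.

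Each of the 5 groups had 3 replicates, and each replicate was a Dam::CrebB library set against a Dam-only library, so the 30 samples gave 15 profiles. Paired flies received odor together with sucrose, and unpaired flies received odor and sucrose apart in time. Dam expression ran in both from 3 h before training to 24 h after it in TI-1, and from 24 h to 48 h after training in TI-2. Naïve flies carried the same transgenes and were not trained. Their labels name no interval, and the same 3 naïve profiles were used for both. All groups therefore share the driver, the temperature-sensitive Gal80 and a Dam transgene, and no group lacks Dam. A higher ratio in every MB cell and a higher ratio in fewer MB cells cannot be told apart in pooled heads.

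Serotonin receptors are G protein-coupled receptors. In flies, 5-HT1A and 5-HT1B lower cAMP, 5-HT7 raises cAMP, and 5-HT2A and 5-HT2B act through Gq and calcium. The cAMP/PKA cascade is the pathway through which CrebB is phosphorylated after training, and 5-HT1A, 5-HT1B and 5-HT7 act on cAMP. Whether any of the receptors acts on CrebB in these cells was not tested. Serotonin reaches the MB lobes from the dorsal paired medial neuron, 5-HT1A acts in α/β Kenyon cells in memory, and a 5-HT1B driver line is in use to label γ Kenyon cells.

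5-HT1B was the receptor gene with the highest gene value in every profile, and the averages of the other 4 genes lay near 0. In naïve flies, 5-HT1B averaged 0.69 ± 0.26 on the log2 scale (SD, n = 3), against 0.17 ± 0.12 for 5-HT1A, 0.11 ± 0.05 for 5-HT2B, 0.04 ± 0.01 for 5-HT7 and 0.02 ± 0.09 for 5-HT2A. 5-HT1B is also the shortest, at 10.3 kb against 20.4 to 54.8 kb, and a short peak weighs less in a longer gene. The highest runs of adjacent fragments averaged 1.17 in 5-HT2B, 0.87 in 5-HT2A, 0.69 in 5-HT7 and 0.62 in 5-HT1A. Those of 5-HT1B averaged 1.02 and 1.08. The part of gene length in this order was not tested. No receptor gene passed the test between paired and unpaired flies. 5-HT1B came closest to a difference, with lower values in all 3 pairs of TI-1. Within 5-HT7, a fragment of 513 bp was higher in all 12 trained profiles than in the 3 naïve ones. It was picked out after its values had been seen, and its difference did not pass the correction over all fragments.

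A single library stood apart. In paired TI-1 replicate 3 the median gene lay at 0.62, whereas the medians of the other 14 profiles lay between -0.00 and 0.12. Across fragments, its Pearson's r with the others ranged from -0.20 to 0.60, and the other 14 had r between 0.37 and 0.94 with each other. Values without replicate 3 stand beside the main comparisons of paired flies at TI-1. In a fit or a difference, replicate 3 was then left out of every group compared, naïve included. A group mean given without replicate 3 leaves out only that group's own profile. The labelled cell type could be viewed only as a ratio, which does not identify cells, since the data hold no RNA. The MB genes ey, toy, dac, Mef2 and prt all had naïve values above 0.2, as had 31.2% of all genes. They ran from 0.27 for dac to 0.69 for toy. Of the glial genes, repo lay at -0.38 ± 0.10 and moody at 0.47 ± 0.02 (SD, n = 3), the latter within the range of the MB genes.

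**Figure D1:**
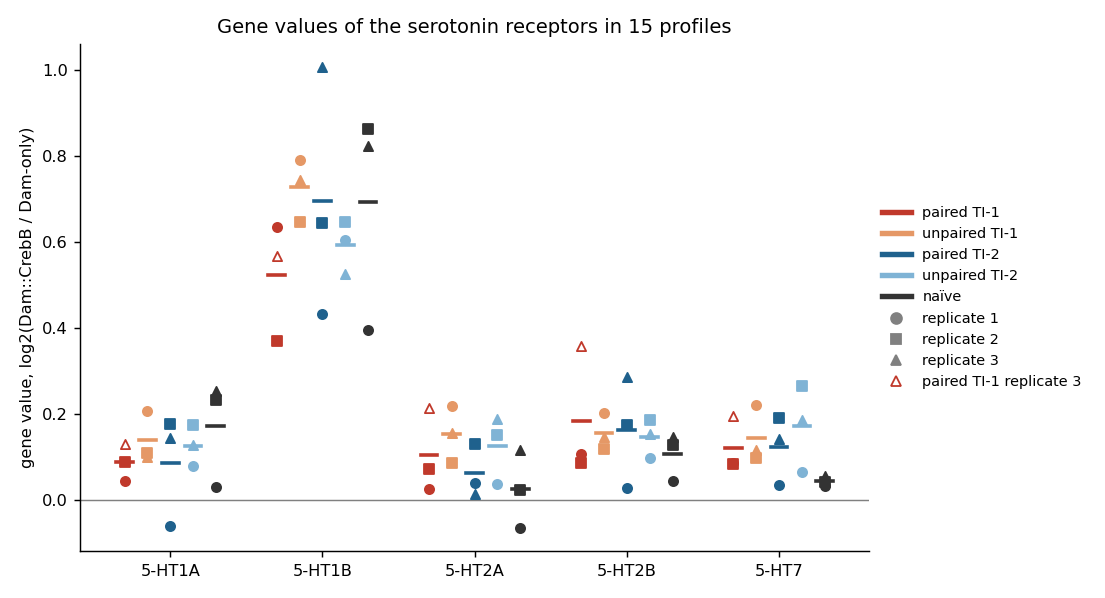
Gene value (log2 ratio, Dam::CrebB to Dam-only, vertical axis) of the 5 serotonin receptor genes in 15 profiles, by group. Points are profiles, short lines are means of 3, and the open triangle is paired TI-1 replicate 3. 5-HT1B lies between 0.37 and 1.01, above the other 4 genes in all 15 profiles.

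Among the receptors that lower cAMP, 5-HT1B lies on chr2R:19022325-19032642 (release 6), spans 10.3 kb and overlaps 14 fragments. Its values were 0.63, 0.37 and 0.57 in paired and 0.79, 0.65 and 0.75 in unpaired flies of TI-1, 0.43, 0.65 and 1.01 in paired and 0.60, 0.65 and 0.53 in unpaired flies of TI-2, and 0.39, 0.86 and 0.82 in naïve flies. The gene was above 0.2 in 15 of 15 profiles, as were 9.4% of all genes. It was higher than 85.3% to 93.1% of all genes in the 14 profiles other than paired TI-1 replicate 3. In that library, where the median gene was raised, 5-HT1B was higher than 47.7% of the genes. The distance from 5-HT1B down to the other receptors was at least 0.21 in every profile, with medians over the 15 profiles between 0.51 for 5-HT2B and 0.56 for 5-HT2A.

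5-HT1A, the second receptor of this class, lies on the same arm at chr2R:19067155-19121958, spans 54.8 kb and overlaps 67 fragments. It had 0.04, 0.09 and 0.13 in paired and 0.21, 0.11 and 0.10 in unpaired flies of TI-1, -0.06, 0.18 and 0.15 in paired and 0.08, 0.17 and 0.13 in unpaired flies of TI-2, and 0.03, 0.23 and 0.25 in naïve flies. The groups overlap, and the value passed 0.2 in 3 of 15 profiles.

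The Gq-coupled receptors were low as well. 5-HT2A (chr3R:4612870-4633304, 20.4 kb, 54 fragments) had 0.02, 0.07 and 0.21 in paired and 0.22, 0.09 and 0.16 in unpaired flies of TI-1, 0.04, 0.13 and 0.01 in paired and 0.04, 0.15 and 0.19 in unpaired flies of TI-2, and -0.07, 0.02 and 0.12 in naïve flies. It was the lowest of the 5 receptors in 9 of 15 profiles. 5-HT2B (chr3R:8578205-8629996, 51.8 kb, 91 fragments) had 0.11, 0.09 and 0.36 in paired and 0.20, 0.12 and 0.15 in unpaired flies of TI-1, 0.03, 0.18 and 0.29 in paired and 0.10, 0.19 and 0.15 in unpaired flies of TI-2, and 0.04, 0.13 and 0.15 in naïve flies. Its highest value came from paired TI-1 replicate 3, where it was higher than only 37.2% of all genes.

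5-HT7, the receptor that raises cAMP, lies on chr3R:30968236-31016875, spans 48.6 kb and overlaps 85 fragments. It had 0.09, 0.08 and 0.19 in paired and 0.22, 0.10 and 0.12 in unpaired flies of TI-1, 0.03, 0.19 and 0.14 in paired and 0.07, 0.26 and 0.18 in unpaired flies of TI-2, and 0.03, 0.04 and 0.06 in naïve flies. The naïve values were the tightest of any gene and group here. The order of naïve means was 5-HT1B, 5-HT1A, 5-HT2B, 5-HT7, 5-HT2A. Only the first step of that order exceeded the spread, since the lowest naïve value of 5-HT1B (0.39) lay above the highest of 5-HT1A (0.25), and each later pair of neighbours overlapped.

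The naïve profiles were tested against 0 with limma over all genes, which asks where Dam::CrebB exceeds Dam-only without training. 5-HT1B had a mean of 0.69 (SE 0.11) and a Benjamini-Hochberg adjusted p of 0.0169 from limma. It was not called at an adjusted p under 0.01, and neither was any of the 17480 genes, the smallest adjusted p being 0.0111. At an unadjusted p under 0.05 and a size over 0.2, limma gave 30% of genes higher and 18.1% lower. At an adjusted p under 0.05 and a mean above 0.2, 5-HT1B was the only receptor gene called, 1 of 5, where 28.6% of all genes were called higher and 17.3% lower. The limma adjusted p was 0.0778 for 5-HT1A, 0.0811 for 5-HT2B, 0.283 for 5-HT7 and 0.699 for 5-HT2A. Without naïve replicate 1 the mean of 5-HT1B was 0.84 with an adjusted p of 0.00507, and without replicate 3 it was 0.63 with an adjusted p of 0.0927.

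The comparison of paired with unpaired flies addresses the association of odor and reward. At TI-1 the 5-HT1B differences, paired minus unpaired, were -0.16, -0.28 and -0.18 in the 3 pairs. Paired values did not overlap unpaired ones, and 5-HT1B was the only receptor gene of which this was true. Over all genes, 10.1% were below 0 in all 3 pairs, and 2.18% were lower without overlap. The limma mean was -0.20 (SE 0.09), with an adjusted p of 0.836, so the difference did not pass the test. The smallest two-sided p that an exact sign permutation of 3 differences can give is 0.25. Without replicate 3 the limma mean was -0.22 with an adjusted p of 0.687, and over all alternatives it stayed between -0.37 and -0.17, with adjusted p between 0.638 and 0.979. The median difference of all genes at TI-1 was 0.11, and it was 0.47 in pair 3, so that 5-HT1B lay further below the other genes than below 0 in that pair. Without replicate 3 the median of all genes was -0.04.

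The other 4 receptor genes at TI-1 gave means of -0.05 for 5-HT1A and 5-HT2A, 0.03 for 5-HT2B and -0.02 for 5-HT7, each smaller than its SE, with limma adjusted p between 0.889 and 0.972. The sign of 5-HT2B depended on the scaling, since it was -0.14 with each profile centred on its median gene and -0.07 after quantile normalization. In all 4, pairs 1 and 2 were below 0 and pair 3, which holds the library that stood apart, was above 0. Pair 3 was 0.03 for 5-HT1A, 0.06 for 5-HT2A, 0.21 for 5-HT2B and 0.08 for 5-HT7. The part of that library in these signs was not tested. Without replicate 3 the means were -0.09 for 5-HT1A, -0.10 for 5-HT2A, -0.06 for 5-HT2B and -0.07 for 5-HT7, with limma adjusted p between 0.791 and 0.858.

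At TI-2 the order was not kept. 5-HT1B differed by -0.17, -0.00 and 0.48 in the 3 pairs, with a limma mean of 0.10 (SE 0.16) and an adjusted p of 0.898. Pair 3 set the sign, since the mean without replicate 3 was -0.09, and it was -0.13 after quantile normalization. 5-HT7 was below 0 in all 3 pairs of TI-2 (-0.03, -0.07 and -0.04), as were 8.87% of all genes. Replicate numbers were not shown to pair the samples of TI-2, so these signs depend on the numbering. The limma mean of 5-HT7, -0.05 (SE 0.06), had an adjusted p of 0.891. The means of 5-HT1A, 5-HT2A and 5-HT2B were -0.04, -0.06 and 0.02, the last turning to -0.07 after quantile normalization, and the paired and unpaired values of TI-2 overlapped in all 5 receptors. Over all genes, 2.71% were lower and 3.2% higher without overlap. A test of the difference between the intervals gave -0.31 (SE 0.19) for 5-HT1B with a limma adjusted p of 1. Over all genes, 0 were called at either interval. At an unadjusted p under 0.05 and a size over 0.2, limma gave 1 gene higher (0.00572%) and 179 lower (1.02%) in the first interval. In the second it gave 51 higher (0.292%) and 49 lower (0.28%). No receptor gene was among these. Without replicate 3, limma gave 127 higher (0.727%) and 967 lower (5.53%) in the first interval, and 5-HT1B then passed this unadjusted threshold, as it did with array weights (-0.23). Its limma adjusted p was 0.687 and 0.646 in these fits. With array weights, 11 of 17480 genes were higher and 861 lower at that unadjusted threshold.

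**Figure D2:**
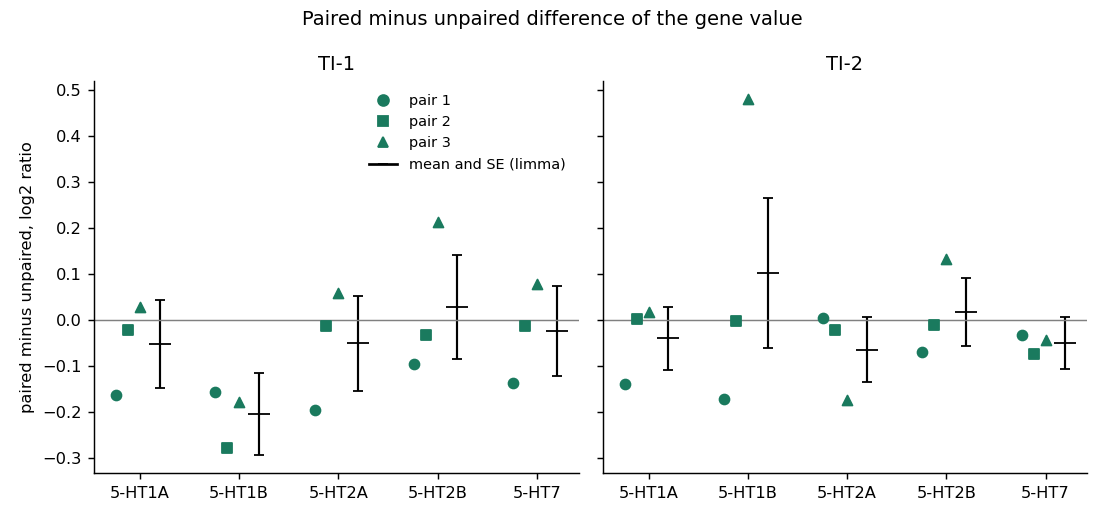
Paired minus unpaired difference of the gene value (log2 ratio, vertical axis) for each of the 3 pairs of TI-1 (left) and TI-2 (right), with the limma mean and SE in black. At TI-1 the 3 pairs of 5-HT1B lie between -0.28 and -0.16, and at TI-2 they lie between -0.17 and 0.48.

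Trained flies were also compared with naïve flies in a limma fit of all 15 profiles, in which the 4 comparisons share the naïve profiles. No receptor gene was called, and 0 of all genes were. At an unadjusted p under 0.05 and a size over 0.2, limma gave 7.6% of genes higher and 2.65% lower in paired TI-1, 0.749% and 0.229% in unpaired TI-1, 0.606% and 2.2% in paired TI-2, and 1.58% and 1.33% in unpaired TI-2, with no receptor among them. Without replicate 3 these shares were 3.35% and 0.921% in paired TI-1, 4.29% and 0.154% in unpaired TI-1, 2.27% and 1.46% in paired TI-2, and 1.7% and 1.12% in unpaired TI-2. With each profile centred on its median, 5-HT1A (-0.29) and 5-HT1B (-0.38) passed the unadjusted threshold in paired TI-1, both with a limma adjusted p of 0.282. In that setting 1302 of 17480 genes were higher and 1554 lower at the same unadjusted threshold. The differences of 5-HT1B were -0.17 for paired and 0.03 for unpaired flies of TI-1, and 0.00 for paired and -0.10 for unpaired flies of TI-2 (SE 0.15 each). The first was -0.13 without replicate 3 of every group, which also takes out the naïve profile at 0.82. A fit without paired TI-1 replicate 3 alone was not run. The lowest limma adjusted p among the receptors was 0.409, for 5-HT7 in paired flies of TI-1. 5-HT7 was higher than in naïve flies without overlap in paired TI-1, unpaired TI-1 and unpaired TI-2. The same held for 19.2%, 22.7% and 10.9% of all genes in these 3 comparisons, and for 9.11% in paired TI-2, where 5-HT7 overlapped, so the share of genes that did this was itself large. The differences of 5-HT7 were 0.08, 0.10 and 0.13 (SE 0.07 each). The first was 0.05 without replicate 3 of every group, turned to -0.13 with each profile centred on its median, and was -0.03 after quantile normalization. The median difference of all genes in paired TI-1 was 0.18, or 0.03 without replicate 3.

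Along the genes, the signal was uneven, and positions are given in kb from the end of the gene with the lower coordinate, since no strand was at hand. 5-HT1B carried 2 blocks of high fragments. The first, chr2R:19023149-19026396, ran from 0.82 to 4.07 kb over 6 fragments. It averaged 0.93 in paired (0.86 without replicate 3) and 1.30 in unpaired flies of TI-1, 1.36 in paired and 1.09 in unpaired flies of TI-2, and 0.65, 1.08 and 1.33 in the 3 naïve profiles. The second, chr2R:19028665-19032993, ran from 6.34 to 10.67 kb over 4 fragments, past the end of the gene. It averaged 0.59 in paired (0.63 without replicate 3) and 0.82 in unpaired flies of TI-1, 0.70 in paired and 0.66 in unpaired flies of TI-2, and 0.57, 1.46 and 1.22 in the 3 naïve profiles. Between them a fragment of 2270 bp lay at 0.09 ± 0.05 in naïve flies (SD, n = 3). The highest naïve fragment, chr2R:19029584-19029931, had 1.38, 1.61 and 2.12 in naïve flies and lay at 7.43 kb, in the second block. The lowest, chr2R:19021557-19023129, overlaps the end of the gene at 0 kb and had -0.11, -0.17 and -0.22.

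The 2 blocks held in nearly all profiles. Of the 14 fragments of 5-HT1B, 10 had a naïve mean above 0.2 and 0 had one below -0.2, where 21% and 18.3% of all tested fragments did. All 3 naïve profiles were above 0.2 in 10 of the 14, against 14.9% of all fragments. In 5 of the 14, all 15 profiles were above 0.2, as were 4.17% of all fragments. These 5 included the first 3 fragments of the first block. At TI-1, 7 of the 14 fragments were lower in paired flies in all 3 pairs and 0 were higher in all 3, against 11.9% and 12.9% of all fragments. In pairs 1 and 2 alone, 8 were lower in both and 0 higher in both, against 29.1% and 16.7% of all fragments. At TI-2 only 1 of the 14 was lower in all 3 pairs and 1 was higher, against 10.9% and 7.75%. No fragment of any receptor gene was called between paired and unpaired flies, the smallest limma adjusted p being 0.806 in TI-1 and 0.951 in TI-2. At an unadjusted p under 0.05 and a size over 0.2, TI-1 had 4 fragments lower in 5-HT2A, 1 each in 5-HT1A, 5-HT2B and 5-HT7, and 0 in 5-HT1B, with 0 higher in any of the 5. Of all fragments, 1.56% (5375) were lower and 0.0374% (129) higher by this measure, and without replicate 3 these counts were 8721 and 2877. The last fragment, chr2R:19031447-19032993, was 0.33 in paired (0.46 without replicate 3) and 0.60 in unpaired flies of TI-1, 0.26 in paired and 0.64 in unpaired flies of TI-2, and 1.19 in naïve flies (means, n = 3 each). Its single values overlapped between trained and naïve flies.

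**Figure D3:**
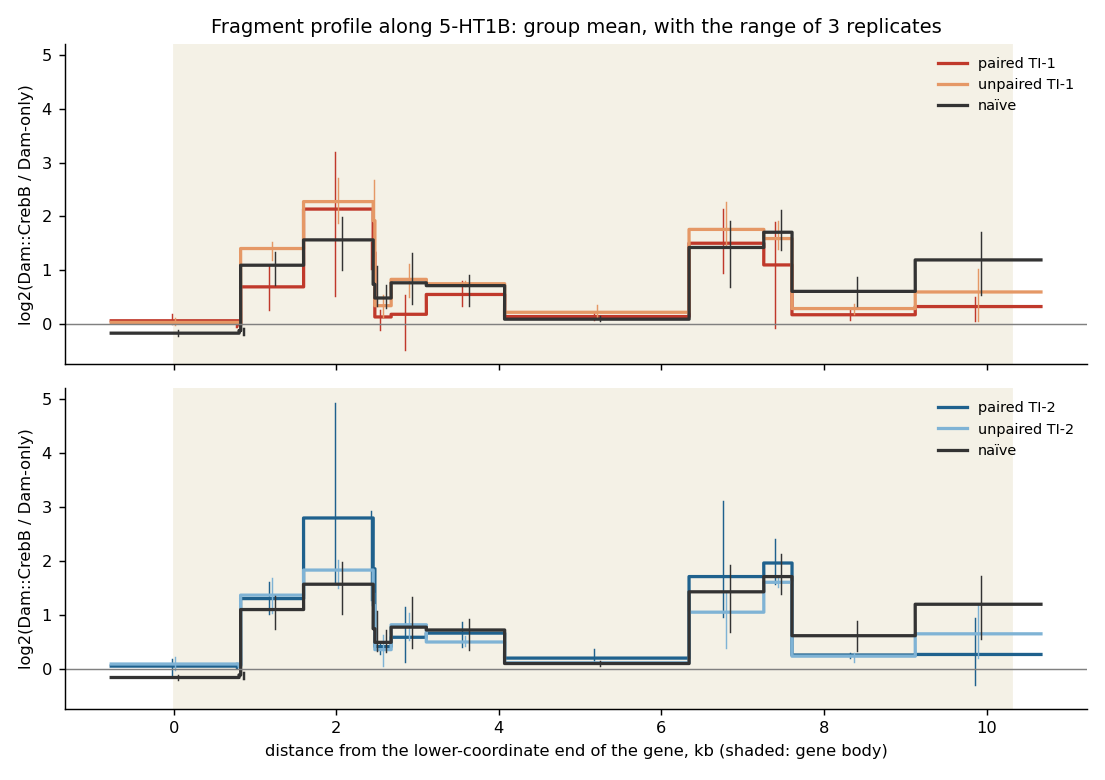
Fragment profile along 5-HT1B, with the log2 ratio on the vertical axis and the distance from the lower-coordinate end of the gene in kb on the horizontal axis. Steps are means of 3 replicates, thin lines are the range of the replicates, the shaded area is the gene body, and TI-1 is above TI-2. The 2 blocks, from 0.82 to 4.07 kb and from 6.34 to 10.67 kb, appear in every group.

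5-HT1A held no block of that size. Of its 67 fragments, 20 had a naïve mean above 0.2 and 3 had one below -0.2, beside 21% and 18.3% of all fragments. Only 5 were above 0.2 in all 3 naïve profiles, and 0 were above 0.2 in all 15 profiles, beside 14.9% and 4.17%. The highest naïve fragment, chr2R:19075274-19076509 at 8.74 kb, had 0.18, 1.46 and 1.66 in naïve flies. Naïve replicate 1 was thus far below the other naïve replicates there. In TI-1 this fragment had 0.60, 0.71 and 0.30 in paired flies and 1.15, 0.98 and 0.63 in unpaired flies. The 3 differences were all below 0, with a mean of -0.39 and a limma adjusted p of 0.806. The lowest naïve fragment, chr2R:19095542-19095922, averaged -0.28 ± 0.29 (SD, n = 3) and lies inside Ir56a, an ionotropic receptor gene nested in 5-HT1A. A run of 3 fragments from 38.53 to 41.66 kb averaged 0.62 in naïve flies and ranged from -0.26 to 0.85 over the 15 profiles. At TI-1, 21 of the 67 fragments were lower in paired flies in all 3 pairs and 2 were higher, beside 11.9% and 12.9% of all fragments. In pairs 1 and 2 alone, 36 were lower in both and 3 higher, beside 29.1% and 16.7%.

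5-HT2A combined high and low stretches, which cancelled in the value of the gene. Its last 3 fragments, chr3R:4632025-4633449 at 19.16 to 20.58 kb, averaged 0.52, 1.04 and 1.06 in naïve flies, and they lay between 0.52 and 2.35 over the 15 profiles, with the highest value in paired TI-2 replicate 3. Just before them, 12 fragments from 15.91 to 18.62 kb (chr3R:4628783-4631494) averaged -0.47, -0.65 and -0.53 in naïve flies. This stretch was below 0 in the 14 profiles other than paired TI-1 replicate 3, where it was 0.28. In all, 18 of its 51 tested fragments had a naïve mean below -0.2 and 10 had one above 0.2, beside 18.3% and 21% of all tested fragments. The naïve mean of the gene, 0.02, became -0.08 when fragments were not weighted by length. The lowest naïve fragment, chr3R:4628783-4629388, had -0.68, -0.99 and -1.08, and the highest, chr3R:4632148-4633042, had 0.71, 1.59 and 1.37.

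5-HT2B gave no signal over a long stretch. Over chr3R:8602070-8610737, 24 adjacent fragments of the 91 were listed at exactly 0 in all 15 profiles, and they could not be tested. On either side stood narrow peaks. Fragments from 13.64 to 15.44 kb (chr3R:8591843-8593646) averaged 0.33, 0.82 and 0.87 in naïve flies, and fragments from 43.21 to 45.02 kb (chr3R:8621415-8623230) averaged 0.57, 1.45 and 1.47. The second peak lay at 0.57 or higher in every profile and reached 2.62 in paired TI-2 replicate 3. Its central fragment, chr3R:8621602-8622368, was the highest of the gene, with 0.87, 1.70 and 1.69 in naïve flies. A further fragment at the end of the gene with the lower coordinate, chr3R:8577934-8578291, averaged 1.32 in paired (1.15 without replicate 3) and 1.30 in unpaired flies of TI-1, 1.98 in paired and 1.15 in unpaired flies of TI-2, and 0.56 in naïve flies. Trained and naïve profiles overlapped at this fragment. Of the 67 tested fragments, 6 were above 0.2 in all 15 profiles, as were 4.17% of all tested fragments. The lowest, chr3R:8627399-8627796, had -0.62, -1.31 and -0.92 in naïve flies. It lay in a low run of 3 fragments from 48.53 to 50.33 kb, which averaged -0.45 in naïve flies. Another low run, from 11.91 to 13.64 kb, averaged -0.36. With the fragments at 0 left out, no receptor gene changed its call. At TI-1, fragments lower in paired flies in all 3 pairs numbered 16 of the 67 tested in 5-HT2B, 9 of 51 in 5-HT2A and 16 of 84 in 5-HT7. Those higher numbered 6, 5 and 4, beside the same 11.9% and 12.9% of all tested fragments. In pairs 1 and 2 alone, 31, 12 and 31 were lower and 6 in each gene were higher, beside 29.1% and 16.7%.

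5-HT7 had a single run of at least 3 adjacent high fragments in naïve flies, from 35.15 to 37.87 kb (chr3R:31003385-31006104), which averaged 0.36, 0.85 and 0.86. Its fragment chr3R:31005084-31005723 was the highest of the gene, with 0.87, 2.05 and 2.01 in naïve flies, and it was above 0.2 in all 15 profiles. Near the end with the lower coordinate, 6 fragments from 0.46 to 2.23 kb averaged 1.06 in paired TI-1 replicate 3 and between -0.27 and -0.13 in the other trained profiles, against -0.26, -0.55 and -0.51 in naïve flies. The lowest naïve fragment, chr3R:30968737-30969126, had -0.43, -0.80 and -0.77.

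A second 5-HT7 peak separated trained from naïve flies, and it was picked out after its values had been seen. The fragment chr3R:30980541-30981053, of 513 bp at 12.31 to 12.82 kb, ranged from 0.98 to 2.81 over the 12 trained profiles with a median of 1.54, and had 0.37, -0.27 and 0.52 in naïve flies. The group means were 1.52 ± 0.51 in paired (1.23 without replicate 3) and 1.56 ± 0.44 in unpaired flies of TI-1, and 1.76 ± 0.33 in paired and 1.82 ± 0.93 in unpaired flies of TI-2, against 0.20 ± 0.42 in naïve flies (SD, n = 3 each). Paired and unpaired flies thus differed by less than their spread at this fragment. The abutting fragments were also higher on average in trained flies, but neighbours share libraries and are no separate support. The fragment before the peak lay between 0.10 and 0.66 in trained and between -0.28 and -0.08 in naïve flies. The fragment after the peak lay between 0.19 and 1.31 in trained and between -0.10 and 0.31 in naïve flies, so there the ranges overlapped.

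Trained minus naïve, the difference at the 513 bp fragment was 1.46 (SE 0.35) with an adjusted p of 0.298 from limma over 344531 fragments, so it did not pass the correction. No fragment did, and 9840 were higher and 6789 lower at an unadjusted p under 0.05 and a size over 0.2. The difference at the 513 bp fragment was 1.43 without replicate 3 of every group, and it ranged from 0.84 to 1.65 over the alternatives tried, with adjusted p between 0.289 and 1. Of all fragments, 1.91% had all 12 trained profiles above all 3 naïve ones, and 0.0923% did so with a difference of means over 1. Among the tested fragments of the receptor genes, all 12 trained profiles lay above the naïve ones in 5 of 84 in 5-HT7 and 2 of 67 in 5-HT2B. The same held for 2 of 14 in 5-HT1B, 0 of 67 in 5-HT1A and 0 of 51 in 5-HT2A. The 2 in 5-HT1B are neighbours of 14 and 8 bp with the same values, so they are not separate measurements. The differences of the 5 in 5-HT7 ran from 0.03 to 1.46, and the 5 include the 513 bp fragment and the abutting one before it. Of the 67 in 5-HT1A, 1 lay below the naïve profiles, as did 0.327% of all fragments. Without the 3 fragments around the peak, 5-HT7 averaged 0.10 in paired and 0.12 in unpaired flies of TI-1, 0.10 in paired and 0.14 in unpaired flies of TI-2, and 0.05 in naïve flies. Training, interval and any difference in how the naïve libraries were made cannot be told apart in this comparison.

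**Figure D4:**
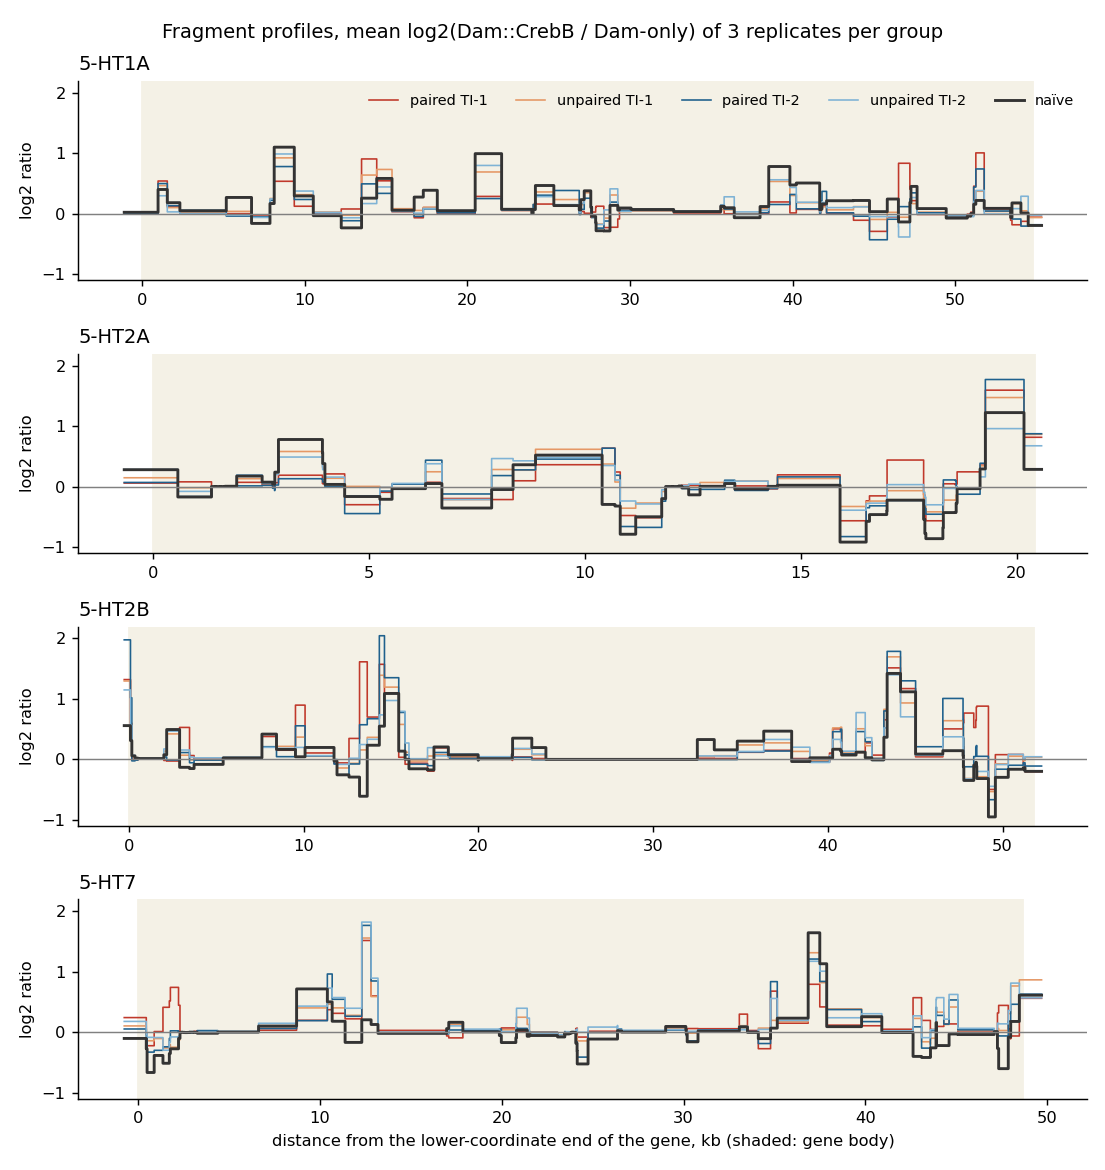
Fragment profiles along 5-HT1A, 5-HT2A, 5-HT2B and 5-HT7 (top to bottom), with the mean log2 ratio of 3 replicates per group on the vertical axis and the distance from the lower-coordinate end of the gene in kb on the horizontal axis. The shaded area is the gene body and the thick line is the naïve mean. In 5-HT7 the 4 trained groups reach 1.52 to 1.82 at 12.31 to 12.82 kb, where the naïve mean is 0.20, and 5-HT2B is flat at 0 over fragments with midpoints from 24.2 to 31.9 kb.

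The shape of these profiles was well repeated among naïve flies. Pearson's r between naïve profiles, across the fragments of a gene, ranged from 0.76 to 0.95 in 5-HT1B, 0.76 to 0.90 in 5-HT2A, 0.85 to 0.92 in 5-HT2B, 0.80 to 0.87 in 5-HT7 and 0.51 to 0.80 in 5-HT1A. Fragments of a gene share libraries and neighbours, so these values are descriptions. The naïve mean profile had an r of 0.48 with paired TI-1 replicate 3 in 5-HT1B, 0.40 in 5-HT2A, 0.12 in 5-HT2B, -0.03 in 5-HT1A and -0.24 in 5-HT7. With the other 11 trained profiles it ranged from 0.69 to 0.92 in 5-HT1B, 0.42 to 0.93 in 5-HT2A, 0.59 to 0.89 in 5-HT2B, -0.18 to 0.88 in 5-HT1A and 0.36 to 0.82 in 5-HT7. In 5-HT1A another trained profile was thus lower than paired TI-1 replicate 3, and in 5-HT2A another was close to it.

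Across the 15 profiles, with each centred on its median gene, the receptor genes did not all move together. 5-HT2A and 5-HT7 had a Pearson's r of 0.92, or 0.70 without paired TI-1 replicate 3. 5-HT1B had an r of 0.60 with 5-HT2A and 0.64 with 5-HT7, which became -0.08 and -0.11 without that library. The genes whose pattern was most like 5-HT1B were btsz, larp and VAChT, with r from 0.97 to 0.98, or 0.93 to 0.97 without that library. For 5-HT7 they were CG43902, Sema2a and fred (0.99 each, or 0.95 to 0.96), for 5-HT2B CG42784, Ptp99A and Gfrl (0.99 each, or 0.92 to 0.95), for 5-HT1A Nlg3, nAChRalpha6 and CG32204 (0.99 each, or 0.93 to 0.95), and for 5-HT2A Art2, rdo and pan (0.97 each, or 0.89 to 0.90). These genes were selected for their likeness, and the points share libraries.

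The receptors were set beside the other genes of amine signaling in naïve flies. The median of the 5 serotonin receptors was 0.11, that of the 12 dopamine, octopamine and tyramine receptors was 0.21, and that of all genes was 0.01. Of the 12, 7 had a mean above 0.2, as had 31.2% of all genes, and 6 were called higher at an adjusted p under 0.05 (limma), against 1 of 5 serotonin receptors and 28.6% of all genes. They ranged from 0.09 for TyrRII, a tyramine receptor, to 0.46 for Octbeta1R, an octopamine receptor coupled to cAMP. 5-HT1B lay above all 12. Among 6 serotonin handling genes (Trhn, Hn, Ddc, Vmat, SerT and speck), 3 were called higher and 1 was called lower, beside 28.6% and 17.3% of all genes. Those called higher were Trhn, Ddc and speck. Ddc, which decarboxylates the precursor to serotonin, had the highest mean at 0.61 ± 0.15, and SerT, the serotonin transporter, had the lowest at -0.27 ± 0.04 (SD, n = 3).

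Among 10 G proteins and effectors, 5 were called higher and 1 was called lower in naïve flies, beside the same 28.6% and 17.3%. Galphai, the α subunit through which 5-HT1 receptors lower cAMP, was highest at 0.60 ± 0.12, and Galphaq, the α subunit of the 5-HT2 receptors, was lowest at -0.54 ± 0.03 (SD, n = 3). Galphaq was higher than 1.83% of all genes. rut, the adenylyl cyclase needed for olfactory memory, had 0.34 ± 0.14. No gene of these lists and no serotonin receptor was called between paired and unpaired flies, the smallest limma adjusted p being 0.836 in TI-1 and 0.891 in TI-2. The median difference at TI-1 was -0.00 for the 12 amine receptors, 0.01 for the G proteins and effectors, 0.31 for the serotonin handling genes and -0.05 for the serotonin receptors, beside 0.11 for all genes. The serotonin handling genes were high in pair 3, where they lay between 0.32 and 2.60. Without replicate 3 the medians were -0.09 for the amine receptors, -0.09 for the G proteins and effectors, -0.05 for the serotonin handling genes and -0.09 for the serotonin receptors, beside -0.04 for all genes.

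**Figure D5:**
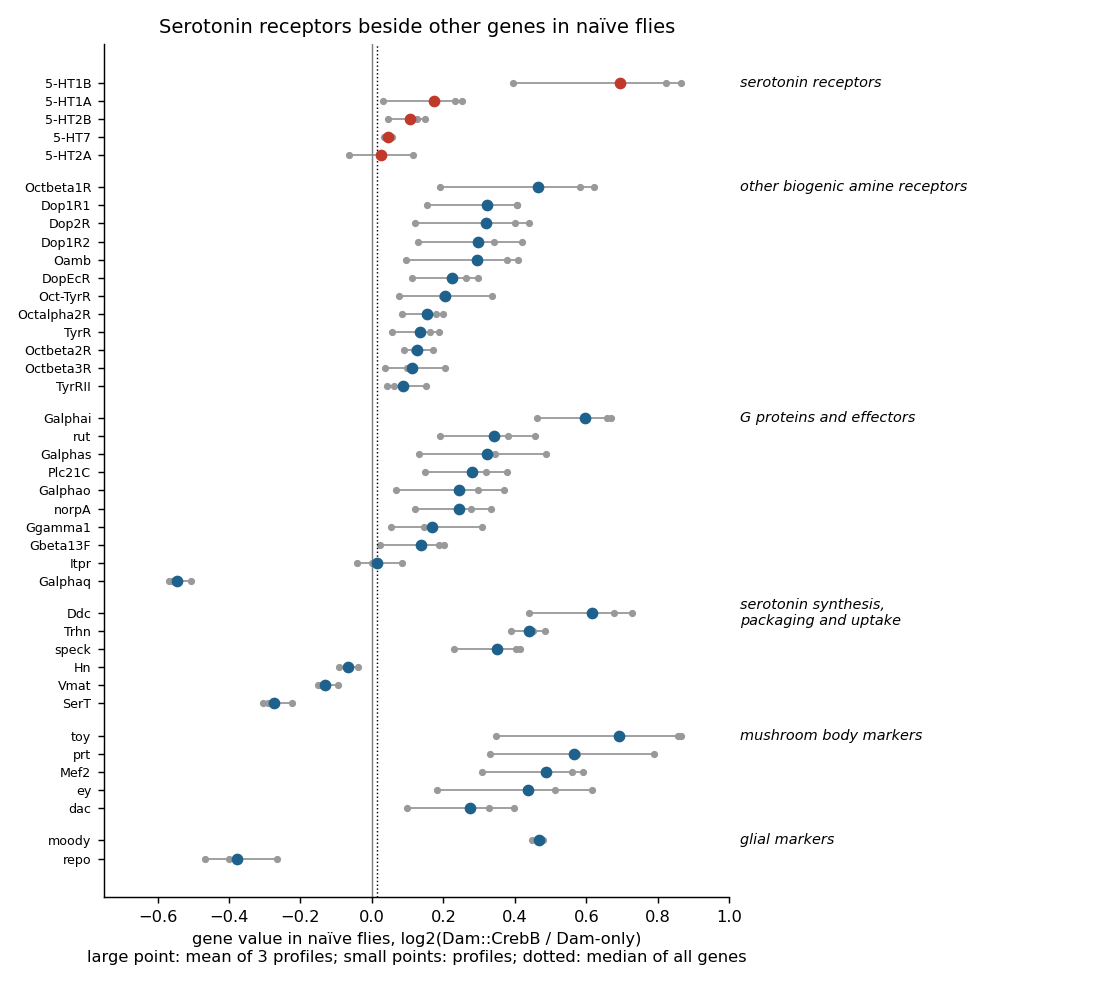
Gene value in naïve flies (log2 ratio, Dam::CrebB to Dam-only, horizontal axis) of the serotonin receptors and of 5 other lists. Large points are means of 3 profiles, small points are the profiles, and the dotted line is the median of all genes, 0.01. 5-HT1B (0.69) lies above the other receptors, and Galphaq (-0.54) is the lowest gene shown.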

How the data were processed

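Each profile set a Dam::CrebB library against a Dam-only library. The authors deposited log2 ratios per GATC fragment, made with the damid pipeline on release 6.22 of the genome, which aligned and extended reads, binned and normalized counts and added pseudocounts. No read counts were at hand, so the depth of each library is unknown and no counting interval is given. The authors' gene lists, which hold a ratio and a false discovery rate per transcript, were not used. Values of 0 were kept in the main setting.

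The value of a gene is the length-weighted mean of the log2 ratio over fragments overlapping its body, with gene positions from a RefSeq table of release 6 that gives no strand or exons. Paired and unpaired profiles were fitted with limma 3.58.1 (R 4.3.3) on differences of same-numbered replicates, naïve profiles against 0, and trained against naïve groups in a fit of all 15 profiles. P-values were adjusted by Benjamini-Hochberg over all genes, and a call needed an adjusted p under 0.01 and a size over 0.2. Fragments listed at 0 in every profile were left out of the fragment tests, which covered 344531 fragments. The p-values measure the spread between 3 biological replicates. Alternatives were an adjusted p of 0.05, unweighted means, centring on the median, quantile normalization, genes with at least 5 fragments, fragments at 0 left out, fragments wholly inside the gene, array weights, the replicate block turned on or off, and each replicate left out. The scripts were tested on simulated data. Python 3.11.15, numpy 2.4.6, pandas 2.3.3 and matplotlib 3.10.9 were used.

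The genes named are the 5 receptors, the highest and lowest naïve fragment of each, the 3 genes of at least 10 fragments with the highest Pearson's r to each, and list members that were called or were highest or lowest in naïve flies. Further stretches were named from those where at least 3 adjacent fragments had naïve means past 0.2 in size, and not all of these are given. Some single fragments were named outside these rules. The receptors and lists were chosen with earlier results of these data known, and the comparison of trained with naïve fragments was added after their values had been seen. No receptor sequence is shown.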

Additional observations from a re-analysis of the deposited data

How the results depend on the processing

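For the 5 receptors, 510 alternative values were computed for 40 results. Of these, 488 were counted as the same and the direction turned in 16. The other 6 passed the threshold that the main value did not, all 6 for 5-HT1B in naïve flies. The 488 include 38 values of size under 1 SE that changed sign, so direction was not kept in all of them. The cause of these changes was not tested.

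Turned values were as follows. At TI-1, 5-HT2B was -0.052 with array weights, and from -0.063 to 0.090 with a replicate left out. At TI-2, 5-HT1B was -0.13 after quantile normalization and from -0.087 to 0.24 with a replicate left out. Between intervals, 5-HT2A ran from -0.095 to 0.12 with a replicate left out, the lowest being without replicate 3. In naïve flies, unweighted means gave -0.083 for 5-HT2A and -0.012 for 5-HT7. For unpaired TI-1 minus naïve, 5-HT1B was -0.11 with array weights and from -0.15 to 0.16 with a replicate left out. For paired TI-1 minus naïve, centring gave -0.13 for each of 5-HT2A, 5-HT2B and 5-HT7, quantile normalization gave -0.0096 for 5-HT2A and -0.026 for 5-HT7, and array weights gave -0.012 for 5-HT2A. For paired TI-2 minus naïve, array weights gave -0.21 for 5-HT1B.

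Over all genes, 0 were called in naïve flies in the main setting. The counts higher and lower were 5001 and 3016 at an adjusted p under 0.05, 3465 and 1551 with centring, 5536 and 1647 with quantile normalization, 2871 and 1355 with at least 5 fragments, 2767 and 1049 without fragments at 0, and 4696 and 2732 with array weights. They stayed at 0 and 0 with unweighted means and with fragments wholly inside the gene, where an unadjusted p under 0.05 gave 4439 and 2613, and 3775 and 2815. With a replicate left out they ran from 0 to 3178 higher and from 0 to 1010 lower. Over fragments, 4453 were called higher and 2904 lower at an adjusted p under 0.05. Counts between paired and unpaired flies, and between trained and naïve flies, were 0 under every alternative run.

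The replicate numbers were not shown to pair the samples, since same-numbered deviations of TI-1 had r of 0.54, 0.03 and 0.46, and those of TI-2 had -0.12, -0.09 and -0.25. Without the replicate block, 5-HT1B at TI-1 stayed at -0.20 (limma adjusted p = 0.838), and 0 genes were called, with 2 higher and 83 lower at an unadjusted p under 0.05. The replicate block changed no other call. Each group had 3 replicates and no read counts were at hand, so what depth limits was not tested. Values of TI-1 lists, blocks and fragment directions without replicate 3 were chosen after seeing the data.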

Other observations

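5-HT1B and 5-HT1A lie 34.5 kb apart on the same arm, with 3 genes between them (CG15115, Gpxl and CG15109). The 49 fragments between the receptors averaged 0.08 ± 0.06 in naïve flies (SD, n = 3), well under the 0.69 of 5-HT1B. The 5 kb past the higher-coordinate end of 5-HT1B averaged 0.56 ± 0.27 in naïve flies, and the 5 kb before its other end averaged 0.21 ± 0.11 (SD, n = 3 each). CG43351, a gene nested in 5-HT1B, is covered by a single fragment at 0.61 ± 0.27, and the signal of a nested gene and that of its host cannot be told apart.

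5-HT7 holds 4 nested genes, of which CG31007 had -0.22 ± 0.12 and lncRNA:CR46117 had -0.22 ± 0.10 in naïve flies (SD, n = 3 each). None of the 4 overlaps the fragment that was high in trained flies. In 5-HT2B, the fragment at 13.20 to 13.64 kb was also above the naïve values in all 12 trained profiles, but its trained values ran from -0.17 to 4.17 with an SD of 2.22 in paired flies of TI-1, against -0.41, -0.81 and -0.60 in naïve flies.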
